A study of Mus musculus with 4 samples.

Results

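Solute carriers are membrane proteins that move sugars, amino acids, ions, metals, vitamins and other small molecules across cell and organelle membranes. The genes described here are those whose symbol carries the solute carrier prefix with a family number, the letter a and a member number, and which were listed at 1 FPKM or more in at least 1 of 4 mouse lens libraries. FPKM, fragments per kilobase and per M fragments mapped (M for mega), corrects for transcript length and library size. The pattern matched 325 symbols on 431 loci of 44597. Of these, 133 stayed under 1 FPKM in every library and 4 (Slc7a11, Slc45a2, Slc24a5 and Slc26a4) were left out by name, which left 188 members among 11495 symbols at that level. The level chose the members, so that they are expressed is no finding. Just inside the limit lay Slc1a2 (highest library 1.02 FPKM), Slc26a2 (1.08) and Slc25a32 (1.09), and just outside it lay Slc5a2 (0.993), Slc2a3 (0.984) and Slc25a10 (0.982). The pattern does not take solute carriers with another family letter, such as Slc35b1, nor loci that list another symbol first. Of the 188 members, 4 (Slc7a6os, Slc4a1ap, Slc9a3r1 and Slc9a3r2) carry the prefix but are not named as carriers, and 3 are loci listed with 2 symbols (Slc10a3 with Ubl4, Slc22a21 with Slc22a5, Slc2a12 with Tbpl1).

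All libraries came from lenses of C57BL/6 mice that carry a transgene for alpha A crystallin. CRYAAN101D mice express the deamidated form (N101D), and CRYAAWT mice, the controls, express the WT protein. They are called N101D and WT below. Each genotype gave 1 library at 2 months and 1 at 4 months. The labels used here give neither the promoter of the transgenes nor the number or sex of the animals in a library. With 1 library per group, differences between single libraries carry no test and no replicate check.

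The lens has no blood vessels. Its epithelium and fibers take glucose, amino acids, ascorbate and ions from the aqueous and vitreous humours, and the aqueous humour is made by the ciliary body, whose epithelium is itself rich in transporters. Glucose carriers, amino acid carriers that feed glutathione synthesis, carriers of osmolytes such as taurine and myo-inositol, and cation-chloride cotransporters that set cell volume are the groups best known from the lens. In whole lens RNA, fewer cells of a type and less RNA per cell cannot be told apart.

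Depth, inferred from the spacing of low FPKM values, was 24.6 M fragments for the N101D library and 49.5 M for the WT library at 2 months. At 4 months it was 52.9 M for N101D and 35.2 M for WT. For N101D at 2 months and WT at 4 months a 2-fold higher depth scored best. The lower was taken because it too gave mostly whole fragment counts. The gaps in depth between libraries, and the fragment counts given below, depend on that choice. At 1 FPKM, 1 kb of effective length rests on about 24.6 fragments in the shallowest library (95% Poisson interval 15.9 to 36.4, counting error only). Lens fiber markers were high in all 4 libraries, at summed levels of 170543 to 306127 FPKM. The N101D library of 2 months stood apart from the other 3. Xist, transcribed from the inactive X chromosome of females, was listed there at 12.9 FPKM against 0.0744 in WT of the same age. Xist has no usable value in either library of 4 months. In the N101D library of 2 months 4 Y-linked genes stood at 0.0367 to 0.303 FPKM, against 1.55 to 11.6 in the other libraries. Of 12 markers for the pigmented tissues around the lens (iris, ciliary body, pigment epithelium), 12 were lower in it than in WT of the same age, 8 of them by 2-fold or more and none of them listed at 0, with a summed level of 47.5 FPKM against 483 (WT, 2 months), 460 (N101D, 4 months) and 436 (WT, 4 months). Genotype at 2 months and age in N101D therefore cannot be told apart from sex, and the part of other ocular tissue in them was not tested.

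The results at 2 months turn on a group of members that were at least 2-fold lower in the N101D library than in WT. The promoters of the 3 with the largest differences are shown with that of Slc25a4, the member of highest level. Each runs from 250 bases before to 50 bases after the gene start as RefSeq gives it on GRCm38.p6. Where a symbol had more than 1 listed promoter, the first was taken, as for Slc6a13, which had 3. Capitals mark 4 motifs on either strand: the E-box letters CATGTG, the palindromic E-box CACGTG, the GC box GGGCGG and the TATA box TATAAA. These motifs do not overlap one another in the windows shown. The first is chr6:121300038-121300337 on the plus strand (Slc6a13), then follow chr6:83237125-83237424 on the plus strand (Slc4a5), chr6:35308077-35308376 on the minus strand (Slc13a4) and chr8:46211013-46211312 on the minus strand (Slc25a4).
Slc6a13: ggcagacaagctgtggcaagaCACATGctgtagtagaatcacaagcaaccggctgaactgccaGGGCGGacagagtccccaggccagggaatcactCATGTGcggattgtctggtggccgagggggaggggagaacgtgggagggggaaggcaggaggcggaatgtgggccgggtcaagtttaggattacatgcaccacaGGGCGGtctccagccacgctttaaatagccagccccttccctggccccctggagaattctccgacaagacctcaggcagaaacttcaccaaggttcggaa
Slc4a5: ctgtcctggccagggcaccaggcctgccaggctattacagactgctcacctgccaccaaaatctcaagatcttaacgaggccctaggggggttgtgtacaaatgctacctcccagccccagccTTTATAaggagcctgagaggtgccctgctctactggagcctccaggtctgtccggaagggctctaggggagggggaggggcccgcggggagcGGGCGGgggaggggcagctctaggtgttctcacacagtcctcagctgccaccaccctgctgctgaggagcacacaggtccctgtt
Slc13a4: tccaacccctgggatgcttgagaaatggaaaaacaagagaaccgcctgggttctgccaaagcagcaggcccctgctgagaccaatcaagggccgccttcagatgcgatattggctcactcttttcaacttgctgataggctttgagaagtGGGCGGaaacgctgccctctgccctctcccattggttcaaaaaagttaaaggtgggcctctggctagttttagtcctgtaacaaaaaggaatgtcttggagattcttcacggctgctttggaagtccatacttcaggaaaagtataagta
Slc25a4: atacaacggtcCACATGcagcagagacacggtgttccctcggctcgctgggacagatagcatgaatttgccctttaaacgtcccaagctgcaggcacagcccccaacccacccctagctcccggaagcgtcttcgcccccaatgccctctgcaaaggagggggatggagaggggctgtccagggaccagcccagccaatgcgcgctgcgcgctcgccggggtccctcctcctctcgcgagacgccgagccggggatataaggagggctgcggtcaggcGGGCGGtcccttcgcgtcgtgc
The E-box letters CATGTG stood in the windows of Slc6a13 and Slc25a4, the GC box letters GGGCGG in all 4, and TATAAA in that of Slc4a5. A promoter was found for 145 members, and for 19 of the 23 members that were at least 2-fold lower in N101D at 2 months. GGGCGG stood in 13 of these 19 (68.4%), in 71.7% of the 145 and in 35.9% of 27025 promoters of all symbols. CATGTG stood in 2 of the 19 (10.5%), 8.97% and 14.1%, CACGTG in 3 (15.8%), 14.5% and 7.24%, and TATAAA in 2 (10.5%), 7.59% and 14.2%. The group of 23 was chosen on its values, and these shares are descriptions. The 27025 promoters were not limited to expressed symbols, while the members were chosen at 1 FPKM or more. No share over all symbols at that level was taken.

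Mitochondrial carriers and amino acid carriers were the substrate classes of highest summed level in the lens libraries. The 188 members summed to 1619 FPKM (N101D, 2 months), 1988 (WT, 2 months), 1942 (N101D, 4 months) and 1844 (WT, 4 months). The 34 mitochondrial carriers held 28.9% to 34.8% of that sum in the 4 libraries, and the 30 amino acid carriers and their heavy chains 18.1% to 24.1%, which includes Slc1a1 from a locus without a clear strand. The 10 members of highest mean level held 44.6% of the summed mean FPKM. A mean of 10 FPKM or more was reached by 39 members and of 50 or more by 6.

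**Figure D1:**
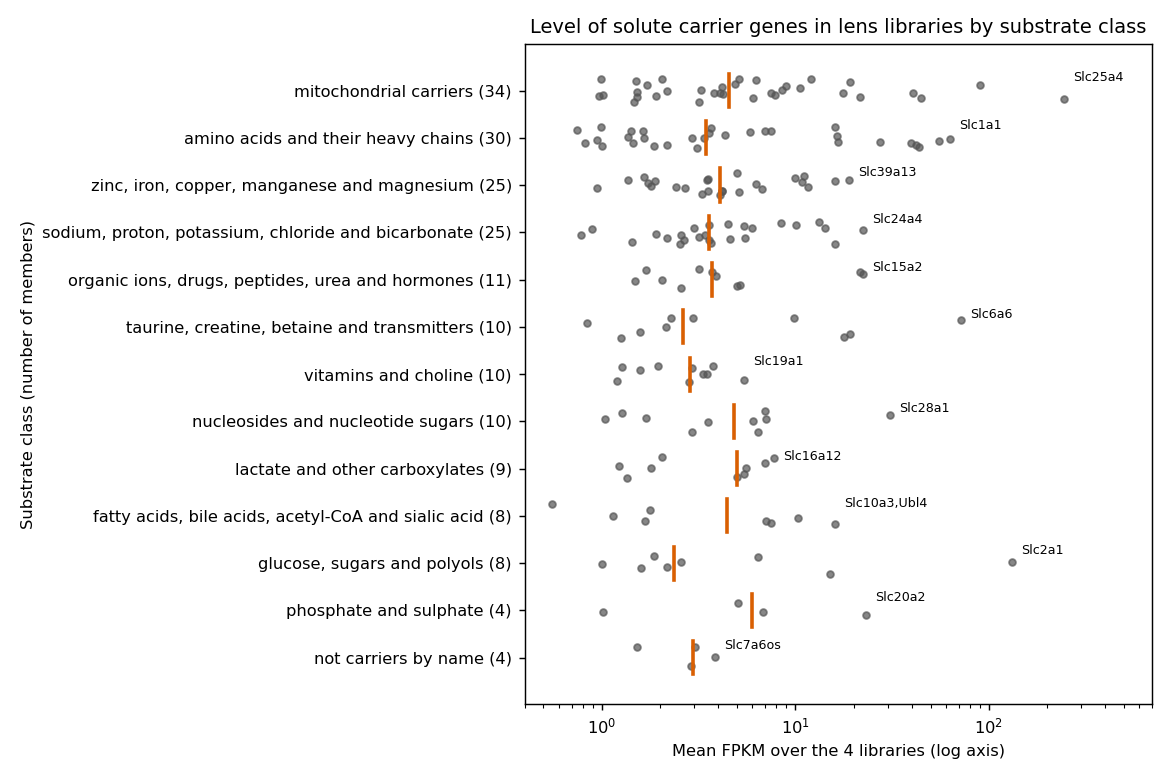
Mean FPKM over the 4 libraries (log axis) of the 188 members by substrate class, with the number of members in brackets. Each point is 1 gene, the orange line is the class median, and the gene of highest mean is named; Slc25a4 and Slc2a1 are the 2 genes above 100 FPKM.

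Among the mitochondrial carriers, Slc25a4, which exchanges ADP for ATP across the inner membrane (XLOC_038565, chromosome 8, 47281897 to 47296363 on mm9), was listed for N101D at 221 FPKM and for WT at 235 in the libraries of 2 months, and at 247 and 271 in those of 4 months. A second locus of this symbol on the other strand of the same span was listed at 86.8 to 104 FPKM. Slc25a5, its close relative, stood at 36.7, 46.3, 38.8 and 40.9 FPKM in the order N101D and WT at 2 months, N101D and WT at 4 months, which is the order used below. Reads may have been shared between these related genes by the authors' estimation. The phosphate carrier Slc25a3 stood at 77.0, 81.6, 105 and 97.2 FPKM, and Slc25a39, needed for glutathione import into mitochondria, at 40.5, 44.7, 50.3 and 42.3. Among these 4 genes the genotype difference of largest size was -0.32 on the log2(FPKM + 1) scale, that of Slc25a5 at 2 months.

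The sugar carrier of highest level was Slc2a1, the facilitative glucose carrier GLUT1 (XLOC_026889, chromosome 4, 118781349 to 118812496), at 119, 164, 126 and 118 FPKM. Its highest value was that of WT at 2 months, and the genotypes differed by -0.46 and 0.09 (log2) at the ages of 2 and 4 months. Slc2a3, the carrier GLUT3, was listed at 0.634 to 0.984 FPKM. The sugar carrier gene Slc50a1 stood at 12.3, 11.2, 19.5 and 17.1 FPKM and Slc37a4, which carries glucose 6-phosphate into the endoplasmic reticulum, at 8.04, 7.30, 5.64 and 4.58. Neither of these genes had a 2-fold difference in any of the 4 comparisons. Slc5a3, the sodium/myo-inositol cotransporter, is listed together with Mrps6 on 1 locus at 53.6 to 58.0 FPKM, and how much of that is Slc5a3 was not separated.

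Amino acid carriers were led by Slc1a1, a sodium-dependent carrier of glutamate and cysteine, at 56.2, 56.2, 72.3 and 68.6 FPKM. That value comes from a locus of a block without a clear strand, and the stranded locus of Slc1a1 stood at 1.54, 2.61, 4.93 and 4.59 FPKM. Slc3a2, the heavy chain shared by Slc7a5 and Slc7a8, stood at 63.9, 66.9, 44.2 and 45.9 FPKM. Both libraries of 2 months were higher than both of 4 months. Its partner Slc7a8 stood at 47.9, 50.6, 43.7 and 32.8 FPKM and Slc7a5 at 18.6 and 17.6 at 2 months and 14.1 in WT at 4 months, where N101D differed from it by -0.01 (log2). The cationic amino acid carrier Slc7a2 stood at 54.4, 47.7, 33.6 and 32.1 FPKM and Slc38a2, a carrier of small neutral amino acids, at 49.9, 44.1, 33.7 and 30.9. These 2 genes, like Slc3a2, had their lower values in both libraries of 4 months, and the genotypes lay within 0.19 of each other at each age. Slc1a5, a glutamine carrier, was low, at 1.41 to 1.81 FPKM.

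Of the ion carriers, Slc12a2, the sodium-potassium-chloride cotransporter NKCC1, stood at 15.3, 13.8, 11.8 and 12.1 FPKM. The potassium-chloride cotransporter Slc12a4 stood at 3.83 to 4.94 FPKM, and Slc12a7 at 0.869, 2.21, 2.94 and 1.66. The potassium-dependent sodium-calcium exchanger Slc24a4 stood at 20.8 to 24.9 FPKM, and Slc8a1, the potassium-independent exchanger NCX1, at 3.05 to 4.60. Among these 5 genes only Slc12a7 differed by more than 0.5 between genotypes, by -0.78 at 2 and 0.57 at 4 months. The chloride-bicarbonate exchanger Slc4a2 stood at 4.12, 6.13, 7.39 and 6.30 FPKM, its lowest value in the N101D library of 2 months, as with Slc12a7.

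The remaining named carriers covered carboxylates, acetyl-CoA, vitamins, phosphate, metals, peptides and nucleosides. Slc16a12, a monocarboxylate family member that carries creatine and is mutated in a human cataract, stood at 9.05, 9.03, 6.04 and 6.84 FPKM. Slc33a1, which brings acetyl-CoA into the endoplasmic reticulum, stood at 9.04, 7.78, 6.03 and 7.11. Neither gene differed between genotypes by more than 0.21 (log2). Slc23a2, the ascorbate carrier SVCT2, stood at 2.12, 3.72, 3.15 and 2.75 FPKM, while its relative Slc23a1 stayed at or under 0.225. The phosphate carriers Slc20a2 and Slc20a1 stood at 20.7 to 25.6 and 5.59 to 8.43 FPKM. Of the zinc carriers, Slc39a13 stood at 16.3, 23.1, 15.4 and 21.0, Slc30a9 at 15.1 to 17.2 and Slc39a7 at 9.02, 13.3, 13.9 and 10.4 FPKM, and the copper carrier Slc31a1 at 12.3, 13.2, 8.98 and 9.09. Slc15a2, a peptide carrier, stood at 28.6, 23.0, 19.8 and 17.9 FPKM. Slc28a1, a nucleoside carrier, was listed at 25.3 to 34.7 FPKM on a locus without a clear strand, while its stranded locus stayed at or under 0.0805.

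Carriers of the secretory pathway, of choline and of organic ions are given by their ranges over the 4 libraries. The nucleotide sugar carriers Slc35a1, which brings CMP-sialic acid into the Golgi, and Slc35a4 stood at 6.32 to 8.09 and 6.29 to 7.68 FPKM. The choline carrier Slc44a1 stood at 3.21 to 3.82 FPKM, and Slc44a5, on a locus without a clear strand, at 3.27 to 4.19. Slc15a4, a histidine and peptide carrier of lysosomes, stood at 5.01 to 5.27. A larger spread was that of Slc22a17, a receptor for lipocalin 2, at 13.3, 26.2, 25.1 and 21.5 FPKM. There the N101D library of 2 months was the lowest, and the genotypes differed by -0.93 at 2 and 0.21 at 4 months. The listed span of Slc22a17 also holds Bcl2l2, at 26.1, 24.1, 21.6 and 21.7 FPKM, and Pabpn1, at 16.7, 19.1, 29.7 and 28.2. The loci listed with another symbol stood at 14.3 to 17.8 FPKM (Slc10a3 with Ubl4), 4.38 to 5.46 (Slc22a21 with Slc22a5) and 0.819 to 1.31 (Slc2a12 with Tbpl1). The 4 members not named as carriers summed to 9.08 to 13.7 FPKM.

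**Figure D2:**
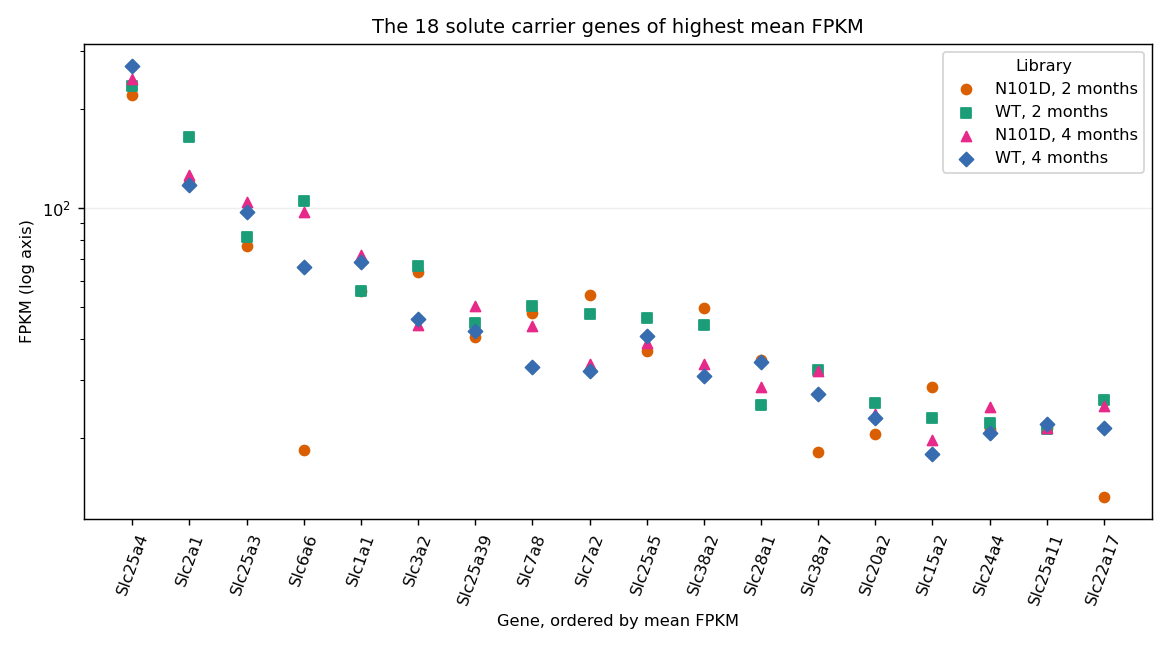
FPKM (log axis) in each of the 4 libraries for the 18 members of highest mean FPKM. Each marker is 1 library; Slc6a6 at 18.5 FPKM is the marker farthest from its gene's other libraries.

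At 2 months a group of carriers led by those of taurine, GABA, bicarbonate and sulphate was far lower in the N101D library than in the WT library. Slc6a13, a carrier of GABA and taurine (XLOC_032540, chromosome 6, 121250313 to 121287736), stood at 0.618, 29.2, 27.4 and 19.2 FPKM. The value of N101D at 2 months, which rests on about 31 fragments (95% Poisson interval 21.1 to 44.0), lies apart from the other 3, and the log2 difference between genotypes was -4.22 at 2 months and 0.49 at 4 months. Slc4a5, a sodium-bicarbonate cotransporter (XLOC_032377, chromosome 6, 83187129 to 83254939), stood at 1.16, 20.3, 19.8 and 15.7 FPKM (-3.30 and 0.32). Slc13a4, a sodium-sulphate cotransporter (XLOC_032791, chromosome 6, 35215321 to 35258132), stood at 0.0772, 8.32, 7.08 and 4.81 FPKM (-3.11 and 0.48). Slc6a6, the taurine carrier (XLOC_032449, chromosome 6, 91634060 to 91709057), stood at 18.5, 105, 97.3 and 66.5 FPKM (-2.44 and 0.54). In all 4 genes the N101D library of 2 months was the lowest and the WT library of the same age the highest.

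In all, 23 of 187 members with values at 2 months (12.3%) were at least 2-fold lower in N101D and 0 were 2-fold higher. Over all genes 3.69% were 2-fold lower and 0.593% higher. The median over members was -0.17 against -0.09 over all genes. Both medians move with the scaling. With libraries set to equal totals without the crystallins they are -1.59 and -1.56, and under quantile normalization -0.01 and 0.05. In those totals 1 locus without a clear strand, Tspan5, held 2.12e+06 of the 4.61e+06 FPKM of the N101D library of 2 months. Measured from the median of all genes, the members 2-fold lower numbered 23 (3.19% of all genes), and 15 to 19 under these alternatives and with totals taken from stranded loci (1.99% to 2.69% of all genes). Of the 23 members, 15 were under 1 FPKM in the N101D library of 2 months and are members only through another library, so their number is a description and no support. Among the 151 members at 1 FPKM or more in that library, 8 were 2-fold lower, against 1.42% of all genes so chosen. A symbol under 1 FPKM in every library cannot reach a 2-fold difference on this scale. The N101D library of 2 months was the lowest of the 4 for 104 of 186 members (55.9%), and for 47.5% of all genes.

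**Figure D3:**
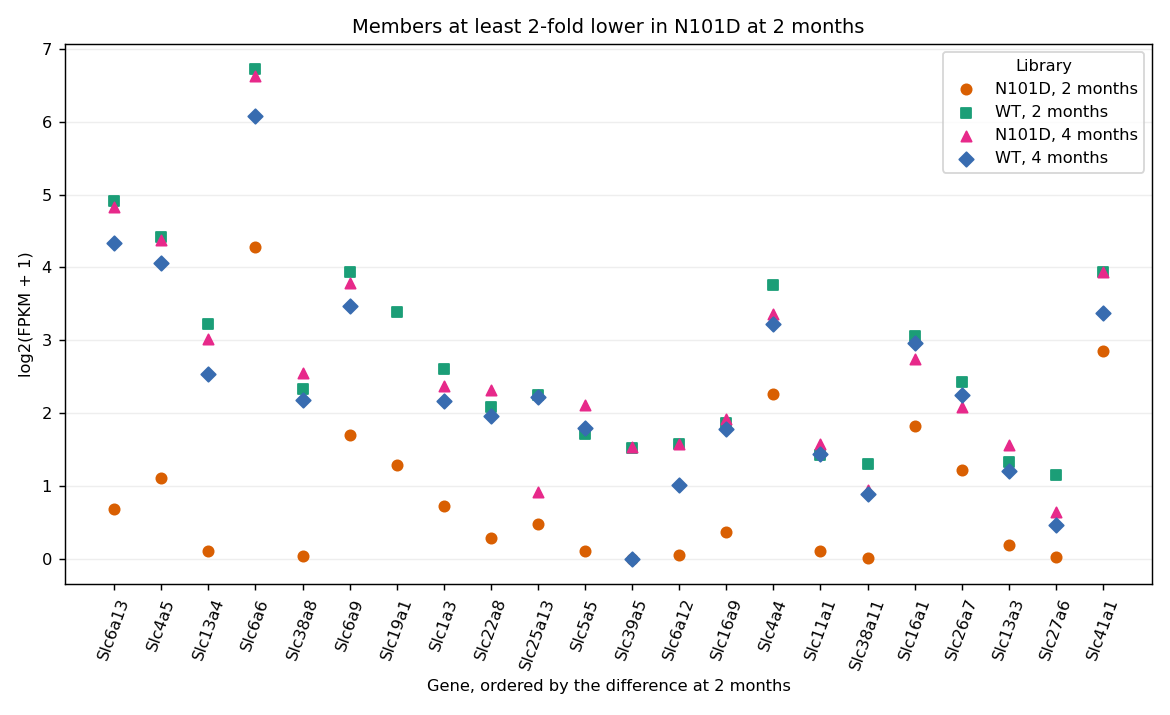
Level as log2(FPKM + 1) in each of the 4 libraries for 22 of the 23 members at least 2-fold lower in N101D than in WT at 2 months, ordered by that difference. Each marker is 1 library; for most genes the orange circle (N101D, 2 months) lies below the other 3, while Slc39a5 and Slc25a13 have a second low library, and Slc19a1 has no value at 4 months.

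The taurine, creatine, betaine and transmitter class had 4 of its 10 members in this group, and its members summed in N101D to 42.6 FPKM at 2 months and to 167 at 4 months, and in WT to 176 and 133. Beside Slc6a6 and Slc6a13 these were Slc6a9, the glycine carrier GLYT1, at 2.27, 14.3, 12.8 and 10.1 FPKM (-2.23 at 2 months) and Slc6a12, a betaine and GABA carrier, at 0.0443, 1.99, 1.99 and 1.03 (-1.52). The listed span of Slc6a9 also holds a locus of B4galt2 and Ccdc24, at 8.23 to 9.69 FPKM. The creatine carrier Slc6a8 differed by -0.89. The exception in sign was Slc18a2, a vesicular monoamine carrier, at 2.96, 1.73, 1.76 and 2.67 FPKM (0.54). Its listed span also holds Pdzd8, which stood at 1.18 against 3.08 FPKM at 2 months.

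Among the 25 ion carriers, 3 were 2-fold lower at 2 months and 19 in all were lower, while 7348 of 11475 genes were lower. Slc4a4, a sodium-bicarbonate cotransporter like Slc4a5, stood at 3.80, 12.5, 9.28 and 8.36 FPKM (-1.49), and Slc26a7, an anion exchanger, at 1.33, 4.40, 3.26 and 3.74 (-1.21). Of the 30 amino acid carriers, 3 were 2-fold lower. Slc38a8, a glutamine carrier mutated in human foveal hypoplasia, stood at 0.0290, 4.02, 4.90 and 3.54 FPKM (-2.29), Slc1a3, the glial glutamate carrier GLAST, at 0.657, 5.10, 4.20 and 3.52 (-1.88) and Slc38a11 at 0.0122, 1.47, 0.923 and 0.862 (-1.29). In these 5 genes the other 3 libraries all lay above the N101D library of 2 months. The high amino acid carriers described above were not among them, with Slc1a1 at 0.00, Slc3a2 at -0.06 and Slc7a8 at -0.08. The value of Slc1a1 is that of its locus without a clear strand, and its stranded locus stood at 1.54 against 2.61 FPKM.

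Of 11 carriers of organic ions, peptides and hormones, 3 were 2-fold lower. Among them were the organic anion carrier Slc22a8 (0.223, 3.25, 3.99 and 2.88 FPKM; -1.80) and Slc5a5, the iodide carrier (0.0840, 2.30, 3.31 and 2.47; -1.61). Lactate and other carboxylate carriers had 3 of 9, with Slc16a9 at 0.296 against 2.65 FPKM (-1.50), Slc16a1, the lactate carrier MCT1, at 2.53 against 7.37 (-1.24) and Slc13a3 at 0.147 against 1.53 (-1.14). The opposite-strand locus of Slc16a1 had 1.93 FPKM in N101D against 0.906, in the opposite sense. Among 25 metal carriers the 3 were Slc39a5, Slc11a1, the macrophage metal carrier (0.0787 against 1.70; -1.32), and the magnesium carrier Slc41a1 (6.20 against 14.3; -1.09). Slc19a1, the reduced folate carrier, stood at 1.46 against 9.43 FPKM (-2.09) and has no usable value at 4 months. Its span also holds Col18a1, at 1.97 against 27.9. Slc27a6, a fatty acid carrier, stood at 0.0252 against 1.23 FPKM (-1.12).

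No member of the sugar class (7 with values) and none of the 10 nucleoside and nucleotide sugar carriers was 2-fold different at 2 months. Of 34 mitochondrial carriers 1 was, Slc25a13. The members highest in N101D relative to WT at 2 months were Slc3a1, the heavy chain rBAT (1.13 against 0.410 FPKM; 0.59), Slc38a4 (10.7 against 6.91; 0.56), Slc18a2, Slc8a1 (0.47), Slc28a1 (0.44), Slc22a23 (0.41), Slc9a7 (0.38) and the lactate exporter Slc16a3 (10.6 against 7.99; 0.36). All 8 turn negative with equal totals without the crystallins. Slc3a1 rests on about 58 fragments in N101D and 43 in WT at 2 months. Its listed span also holds Prepl, at 6.51 against 7.59 FPKM.

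Beside the pigmented tissue markers, 6 of 6 macrophage and leukocyte markers were lower in N101D at 2 months (summed 0.657 against 6.19 FPKM), 5 of 6 vessel markers (13.2 against 19.7), 5 of 6 blood markers (147 against 349), 4 of 6 lens epithelium markers (129 against 234) and 10 of 12 retina neuron markers (434 against 482). In these lists no marker was at 0 in either library. Over all genes, 7348 of 11475 were lower in N101D at this age. Lens fiber markers were lower for 4 of 11 (306127 against 281249 FPKM). Of cornea and conjunctiva markers 4 of 5 were lower, though their sum was higher (92.7 against 57.8 FPKM), and 1 was at 0 in N101D. Of muscle markers 3 of 5 were lower (153 against 152), with 1 at 0 in WT. Their part in the carrier differences was not tested.

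**Figure D4:**
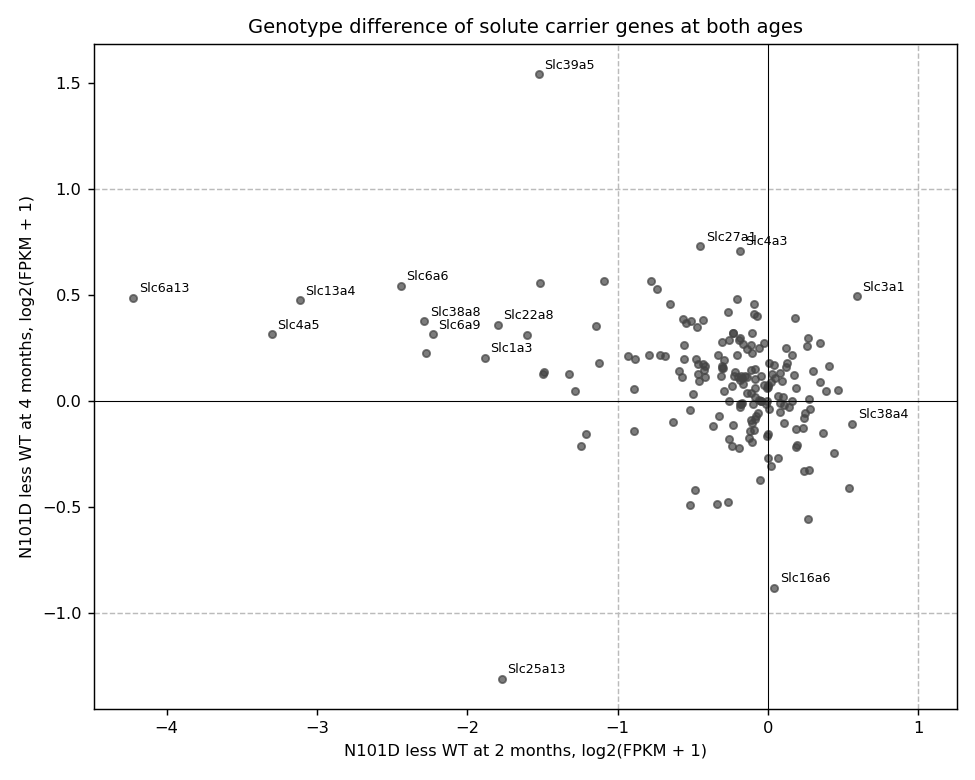
Difference between N101D and WT in log2(FPKM + 1) at 2 months (horizontal) and 4 months (vertical) for the 186 members with values at both ages. Each point is 1 gene and dashed lines mark a 2-fold difference; the points spread to -4.22 at 2 months, and Slc25a13 and Slc39a5 alone lie beyond a dashed line at 4 months.

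At 4 months the genotypes were close for nearly all carriers. Of 187 members, 1 was 2-fold lower in N101D (0.384% of all genes) and 1 higher (0.523%), and the middle 50% of the differences ran from -0.05 to 0.23. The median was 0.11 over members and 0.03 over all genes, and the first turns to -0.08 with equal totals without the crystallins. Slc39a5, a zinc carrier (XLOC_003721, chromosome 10, 127814160 to 127838280), was the member that was higher. At 2 months the tables list it at 0 for N101D and 1.87 FPKM for WT, and at 4 months at 1.91 for N101D and 0 for WT. Its span also holds Ankrd52, which stood at 2.62, 2.99, 3.62 and 2.99 FPKM.

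Slc25a13, a mitochondrial aspartate-glutamate carrier (XLOC_032713, chromosome 6, 5675638 to 6167173), was the member lower at both ages. In the libraries of 2 months Slc25a13 had 0.396 FPKM with N101D against 3.75 with WT, and in those of 4 months 0.891 against 3.69. Both N101D libraries lay below both WT libraries, with log2 differences of -1.77 and -1.31. It shares its listed span with Dync1i1, at 32.9, 29.8, 32.2 and 29.5 FPKM, so that reads of both genes may have been divided between them. Of 186 members, 1 was lower by 0.5 or more at both ages (0.262% of all genes) and 0 were higher (0.306%). The related carrier Slc25a12 stood at 4.24, 7.42, 6.82 and 5.76 FPKM (-0.69 and 0.21).

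Other members lower in N101D at 4 months were Slc16a6 (5.62, 5.42, 2.85 and 6.09 FPKM; -0.88), Slc24a3 (-0.56), Slc25a48 (-0.49), Slc24a1, the sodium-calcium exchanger of rods (7.61, 9.91, 9.29 and 13.4; -0.48), Slc17a7, a vesicular glutamate carrier of photoreceptor terminals (13.3, 16.1, 17.3 and 24.5; -0.48), Slc39a13 (-0.42) and Slc18a2 (-0.41). The span of Slc16a6 also holds Wipi1, at 17.8 to 20.3 FPKM, and that of Slc39a13 holds Psmc3, at 63.8 to 72.0. The value of Slc24a3 comes from a locus without a clear strand, and its stranded locus stood at 8.19 against 7.44 FPKM, in the opposite sense. That of Slc25a48 also comes from such a locus, and its stranded locus stood at 1.22 against 1.54 FPKM. All 12 retina neuron markers were lower in N101D at 4 months, with a summed level of 471 against 777 FPKM and none at 0. The part of retinal RNA in the carrier differences at this age was not tested.

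Higher in N101D at 4 months, after Slc39a5, were the fatty acid carrier Slc27a1 (7.01, 9.94, 15.4 and 8.86 FPKM; 0.73), the chloride-bicarbonate exchanger Slc4a3 (2.31, 2.77, 6.04 and 3.31; 0.71), Slc41a1 (0.57), Slc12a7 (0.57), Slc6a12 (0.56), Slc6a6 (0.54) and Slc16a4 (0.53). For Slc27a1 and Slc4a3 the N101D library of 4 months was the highest of the 4. At this age blood markers stood at 122 FPKM in N101D against 45.6 in WT, with 0 of 6 lower and none at 0. Muscle markers stood at 209 against 196, with 0 of 5 lower and 1 at 0 in WT. The part of either tissue was not tested. For the 22 of the 23 lower members of 2 months that also have values at the later age, the median genotype difference there was 0.32, with 19 positive, while 66.8% of all members were positive.

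The 1 test the design allows was an additive limma fit, which takes the ages as repeats of the genotype comparison. No member passed an adjusted p of 0.05 for genotype, nor did any gene (0%), and 4 of 186 members had an unadjusted p under 0.05, against 1.15% of 11447 genes. The 4 were Slc25a13 (-1.54 ± 0.22 SE; limma adjusted p = 1.00), Slc25a48 (-0.50 ± 0.17), Slc39a13 (-0.45 ± 0.15) and Slc24a1 (-0.41 ± 0.15), all lower in N101D at both ages. Slc25a48 rests on a locus without a clear strand, and its stranded locus stood at 1.00, 1.23, 1.22 and 1.54 FPKM. The span of Slc39a13 also holds Psmc3, at 63.8 to 72.0 FPKM. With equal totals taken from stranded loci without the crystallins, 4 members passed, among 73 of 11447 genes. They were Slc6a13, Slc4a5, Slc25a13 and Slc6a6, at limma adjusted p-values of 1.63e-05, 0.00219, 0.0108 and 0.0195. That fit has an infinite prior df, so a gene's own residual carries no weight in its p-value. As deposited, Slc6a13 (-4.22 at 2 months, 0.49 at 4), Slc4a5 (-3.30, 0.32) and Slc6a6 (-2.44, 0.54) change sign between the ages. In the fit to the values as deposited, of prior df 3.59, an effect of genotype that changes with age enters the residual, which has 1 degree of freedom.

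From 2 to 4 months few carriers differed by 2-fold between the WT libraries. The tables of the ages appear to have been estimated apart, which touches every difference between ages. Of 186 members, 1 was 2-fold lower at 4 months in WT (0.603% of all genes) and 1 higher (0.769%), and the median was -0.09 over members and -0.01 over all genes. The lower member was Slc39a5. The higher was Slc25a28, the mitochondrial iron carrier mitoferrin 2, at 10.6 FPKM at 2 and 23.6 at 4 months in WT (1.08) and at 13.1 and 22.9 in N101D (0.76). Beside these, blood markers in WT went from 349 FPKM at 2 months to 45.6 at 4 months (6 of 6 lower, 4 by 2-fold, none at 0), and retina neuron markers from 482 to 777 (0 of 12 lower, none at 0). Their part in the age differences was not tested.

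In N101D, 23 members were 2-fold higher at 4 than at 2 months (12.4%, and 5.32% of all genes) and 2 lower (1.28% of all genes). The median was 0.25 over members and 0.15 over all genes. The comparison uses the same N101D library of 2 months as the genotype comparison of that age, so its large values are those of Slc6a13 (4.13), Slc4a5 (3.27), Slc13a4 (2.91), Slc38a8 (2.52) and Slc6a6 (2.34) again, where WT differed by -0.58, -0.35, -0.68, -0.14 and -0.65. All 12 pigmented tissue markers were higher at 4 months in N101D, and 7 of 12 were lower in WT. Of 11447 genes, 7382 were higher at 4 months in N101D and 5889 lower in WT.

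The 5 members of largest like age difference in each direction, ranked by the smaller of the WT and N101D values, are given here. Higher at 4 months in both, beside Slc25a28, were Slc16a8, the lactate carrier MCT3 of the pigment epithelium (1.66 and 7.66 FPKM in N101D, 3.93 and 8.56 in WT; 1.70 and 0.95), Slc25a38, a mitochondrial glycine carrier of heme synthesis (0.66 and 0.61), Slc50a1 (0.62 and 0.57) and Slc6a20a (0.98 and 0.50). Lower in both were Slc38a4, an amino acid carrier (10.7 and 2.75 FPKM in N101D, 6.91 and 3.04 in WT; -1.64 and -0.97), Slc16a3, the lactate exporter MCT4 (10.6 and 4.45 in N101D, 7.99 and 5.06 in WT; -1.09 and -0.57), Slc40a1, the iron exporter ferroportin (-0.82 and -0.56), Slc7a2 (-0.68 and -0.56) and Slc3a2 (-0.52 and -0.53). In N101D all 5 of Slc38a4, Slc16a3, Slc40a1, Slc7a2 and Slc3a2 turn positive with equal totals without the crystallins. Lens fiber markers were lower at 4 months for 10 of 11 in N101D and 9 of 11 in WT beside them.

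**Figure D5:**
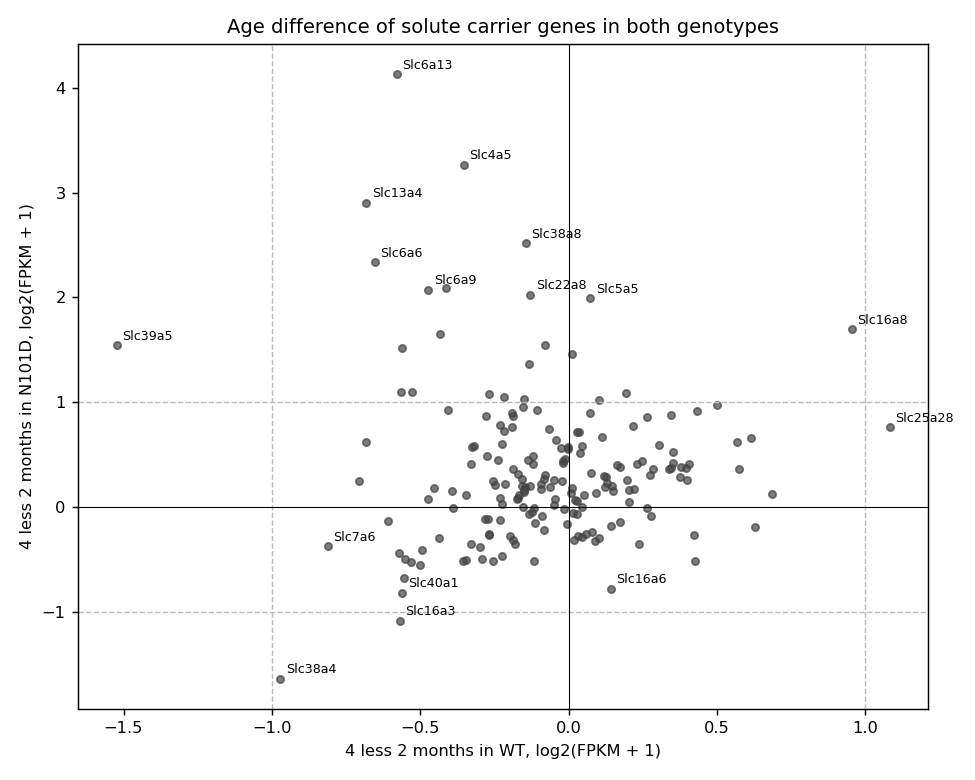
Difference between 4 and 2 months in log2(FPKM + 1) in WT (horizontal) and N101D (vertical) for the 186 members with values at both ages. Each point is 1 gene and dashed lines mark a 2-fold difference; the N101D axis reaches 4.13, while in WT all members but Slc39a5 and Slc25a28 lie within 2-fold.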

How the data were processed

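The deposited values are FPKM per locus, 1 table per library, made by the authors with CASAVA 1, TopHat 1.2.0, Cufflinks 1.0.3 and Cuffdiff on mm9, per the submitters' processing notes. Which Cuffdiff version and gene models they used is not given in the sources used here. Both libraries of an age share a status column, which points to 1 Cuffdiff run per age. Status FAIL (289 loci at 2 months, 488 at 4) was treated as missing, which left 2 members (Slc19a1 and Slc37a2) without values at 1 age. Each symbol took its locus of highest mean FPKM; 56 members had more than 1 locus, and 5 (Slc1a1, Slc24a3, Slc25a48, Slc28a1 and Slc44a5) rest on loci of a separate block without a clear strand. For 35 members the listed span holds another symbol at 1 FPKM or more. Loci without a symbol (15488) or with a date as symbol (33) were left out.

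Differences are of log2(FPKM + 1), which understates the change of low genes, with no further scaling, and a difference of 1 or more in size is called 2-fold. The test was an additive model of genotype and age in limma 3.58.1 (R 4.3.3), with a trended prior (3.59 df) and Benjamini-Hochberg adjustment over 11447 genes. The code was run on simulated data with an even spread and the same genotype effect at both ages. Effects that change with age were not simulated, so that run does not show how the test behaves on them. The spread that the p-values of the test rest on is that among 4 libraries and may be technical. Depth came from steps of FPKM times length among short single loci, of which 91.5% to 96.8% came within 0.05 of a whole fragment. Where a 2-fold lower depth than the best-scoring one also gave mostly whole counts, the lower was taken. Fragments per gene are approximate, from the longest GENCODE transcript, and scale with the depth taken. Classes follow families. The named genes are the 3 of highest mean in each class, the 8 highest and lowest differences per genotype comparison, those of 0.5 or more at both ages, 5 in each direction with age in both genotypes, a panel of 26 lens transporters (23 are members) and those beside the 1 FPKM limit; the members 2-fold lower at 2 months were added after their values were seen. Members, classes and lists were chosen with earlier results of these data known. Values of 3 members by name are not reported here; they stay in every count.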

Additional observations from a re-analysis of the deposited data

Results flagged for a closer look

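For 6 members the genotype difference pointed in opposite directions at the ages of 2 and 4 months by 0.5 or more each. Between the ages of 2 and 4 months the difference shifted upward by 3.06 for Slc39a5, 2.99 for Slc6a6, 2.08 for Slc6a12, 1.66 for Slc41a1, 1.34 for Slc12a7 and 1.27 for Slc16a4 on the log2 scale. With 1 library per group this change between ages was not tested. In Slc6a6, Slc6a12, Slc41a1, Slc12a7 and Slc16a4 the N101D library of 2 months was the lowest of the 4, and in Slc39a5 it was listed at 0, as was WT at 4 months.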

How the results depend on the processing

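No paired analysis was possible because each group has 1 library; for the same reason leaving out a replicate was not run. Across the alternatives 105 recomputed counts, medians and levels stayed close and 38 moved; those 38 are given here, and unless stated the cause was not tested. Counts are of members 2-fold different.

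With pseudocount 0.1, 1 member was higher in N101D at 2 months, 2 were lower and 2 higher at 4 months, and with age 4 were lower and 2 higher in WT and 38 higher in N101D. With 5 FPKM or more in at least 1 library, which tests fewer genes, 10 were lower at 2 months, 0 lower and 0 higher at 4 months, 0 lower with age in WT and 12 higher with age in N101D, and 2 had an unadjusted limma p under 0.05. With loci of status OK only, again fewer genes, 12 were lower at 2 months, and with age 0 were higher in WT, 11 higher and 0 lower in N101D. Summing all loci of a symbol left 1 lower with age in N101D, and quantile normalization 14 higher. Without any filter, 16 symbols had an unadjusted limma p under 0.05.

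Equal totals without the crystallins rest mainly on loci without a clear strand, which hold up to 94.3% of the totals. With them 169 members were lower at 2 months (median -1.59), as were 89.4% of all genes, and 2 at 4 months, 5 were higher with age in WT (median 0.26), 175 higher (93.4% of all genes) and 0 lower with age in N101D (median 1.75), the members summed to 2829.6 FPKM on average, and 1 had an unadjusted limma p under 0.05. Single named values moved in 281 recomputations and kept close in 1040. With equal totals 187 of 187 members had a negative difference at 2 months and 186 of 186 a positive age difference in N101D, against 133 and 130 as deposited. Of the differences that were 2-fold as deposited, those of Slc16a3 and Slc38a4 with age in N101D reversed, to 0.73 and 0.11.

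The next 2 alternatives were chosen after seeing the data. With totals taken from stranded loci, the median was -0.52 at 2 months and 0.61 with age in N101D, where 42 were higher and 1 lower. In its limma fit, of infinite prior df, 4 members passed an adjusted p of 0.05 and 13 an unadjusted one. Of 11447 genes, 73 and 303 (2.65%) did. Without members that share a listed span with another gene, 0 were lower and 0 higher at 4 months and 0 lower with age in WT, since Slc25a13 and Slc39a5 are then left out.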
